A study of Sus scrofa with 36 samples.

Results

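C1QA and C1QC encode chains of C1q, the recognition molecule of the classical complement pathway, and TYROBP and FCER1G encode adaptors that carry an immunoreceptor tyrosine-based activation motif (ITAM). They are described here together with AIF1, which encodes an actin-binding protein of macrophages. The 5 genes were chosen by their symbols out of 12253 genes measured in subcutaneous adipose tissue of 36 pigs. All of them are listed in the Blue module of the study, a co-expression module that was built on these same pigs and was related to their Obesity Index. Their differences between the groups and their likeness to each other are therefore given below as a description, without p-values.

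The pigs were F2 animals of an intercross of Göttingen minipig boars with Duroc sows. They were placed in 3 groups by the Obesity Index, a predicted genetic value of fatness, with 12 pigs labelled Low (lean), 12 labelled Mean (intermediate) and 12 labelled High (obese). The lean group held 7 males and 5 females, and the other groups 6 males and 6 females each. No pig received a treatment, full sibs could occur within a group, and the lean pigs were the older ones at slaughter, so that group and age cannot be told apart. The pigs are numbered here 1 to 12 (lean), 13 to 24 (intermediate) and 25 to 36 (obese), numbers that only name them. Values are normalized counts, that is, the whole reads recovered from the deposited values divided by the size factor of the pig.

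In white adipose tissue C1q is made largely by macrophages. The chains C1qA, C1qB and C1qC assemble into a molecule that binds immune complexes, dying cells and other surfaces, and binding can start the complement cascade or help phagocytes to take up the particle. TYROBP (also called DAP12) and FCER1G (the common gamma chain of Fc receptors) have hardly any outer part of their own. They sit in the membrane beside receptors such as TREM2 or the Fc receptors, and on binding of a ligand their ITAM is phosphorylated by kinases of the Src family and recruits SYK. AIF1, also called IBA1, bundles actin during ruffling and phagocytosis and is widely used as a stain for macrophages and microglia.

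Between 8735838 and 11755925 reads were recovered per pig, with a median of 10496910. The members were read deeply in every pig, from 114 reads of TYROBP in the lowest pig to 9428 reads of C1QC in the highest. At 114 reads the counting error is 9.37%, far below the spread between pigs, and a counting error of this kind leaves out the error of library preparation. The tissue was checked by marker genes. The adipocyte genes PLIN1, CIDEC, LIPE and PNPLA2 together reached 26840 to 81473 normalized counts in all pigs, and 7 of 10 macrophage markers had a row (among them CD68, MRC1, CSF1R, MSR1, CD14 and LYZ), whereas CD163, MARCO and ADGRE1 had none under these symbols. EMR1, the older symbol of ADGRE1, did have a row, which was seen only later and is not in the sums of markers below. It had group medians of 51 (lean), 156 (intermediate) and 163 (obese) normalized counts, and with it the sums had medians of 2898, 5909 and 6602.

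C1QA, which encodes the A chain, had its lowest median in the lean pigs. Lean pigs ranged from 692 to 3374 normalized counts (median 949), intermediate pigs from 650 to 3406 (median 1843) and obese pigs from 1335 to 5760 (median 2298; n = 12 each). The lean median was exceeded by each of the 12 obese pigs and 9 of 12 lean pigs were below the lowest obese pig, but 3 lean pigs were above the obese median, so that the groups overlapped. With sex as a term, obese minus lean was 0.96 on the log2 scale (SE 0.303), a fold of 1.94. The intermediate pigs lay between the others, with 0.53 above lean and 0.43 below obese. The latter distance was 0.28 without pig 20 and 0.53 without pig 19.

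C1QC, which encodes the C chain, followed the same order. Lean pigs ranged from 887 to 5813 normalized counts (median 1352), intermediate pigs from 1169 to 5197 (median 2670) and obese pigs from 2153 to 8421 (median 3715). Here 8 of 12 lean pigs were below the lowest obese pig and 1 obese pig, pig 27, was above the highest lean pig. Obese minus lean was 1.04 on the log2 scale (SE 0.307), a fold of 2.05. The step from lean to intermediate was 0.57 and the step from intermediate to obese 0.46, and the latter was 0.34 without pig 20 and 0.56 without pig 19.

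TYROBP ranged in lean pigs from 127 to 898 normalized counts (median 243), in intermediate pigs from 182 to 882 (median 442) and in obese pigs from 303 to 828 (median 513). The highest pig of all 36 was thus a lean one, pig 2, and no obese pig was above it. Obese minus lean was 0.80 on the log2 scale (SE 0.275), a fold of 1.75. Of this difference, 0.55 lay between lean and intermediate and 0.25 (SE 0.274) between intermediate and obese, and the latter was 0.12 without pig 15 and 0.36 without pig 19.

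FCER1G ranged in lean pigs from 128 to 959 normalized counts (median 291), in intermediate pigs from 233 to 1031 (median 542) and in obese pigs from 328 to 826 (median 577). Each of the 12 obese pigs exceeded the lean median, but none was above pig 2 (lean, 959) or pig 20 (intermediate, 1031). Obese minus lean was 0.82 on the log2 scale (SE 0.26), a fold of 1.77. The intermediate pigs were 0.64 above the lean and 0.19 below the obese pigs, and the latter distance was smaller than its SE of 0.26 and was 0.08 without pig 15.

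AIF1 ranged in lean pigs from 134 to 495 normalized counts (median 176), in intermediate pigs from 122 to 639 (median 297) and in obese pigs from 201 to 659 (median 378). Only 1 lean pig, pig 2, was above the obese median, and 2 obese pigs were above the highest lean pig. Obese minus lean was 0.76 on the log2 scale (SE 0.242), a fold of 1.69, with steps of 0.37 and 0.38.

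**Figure D1:**
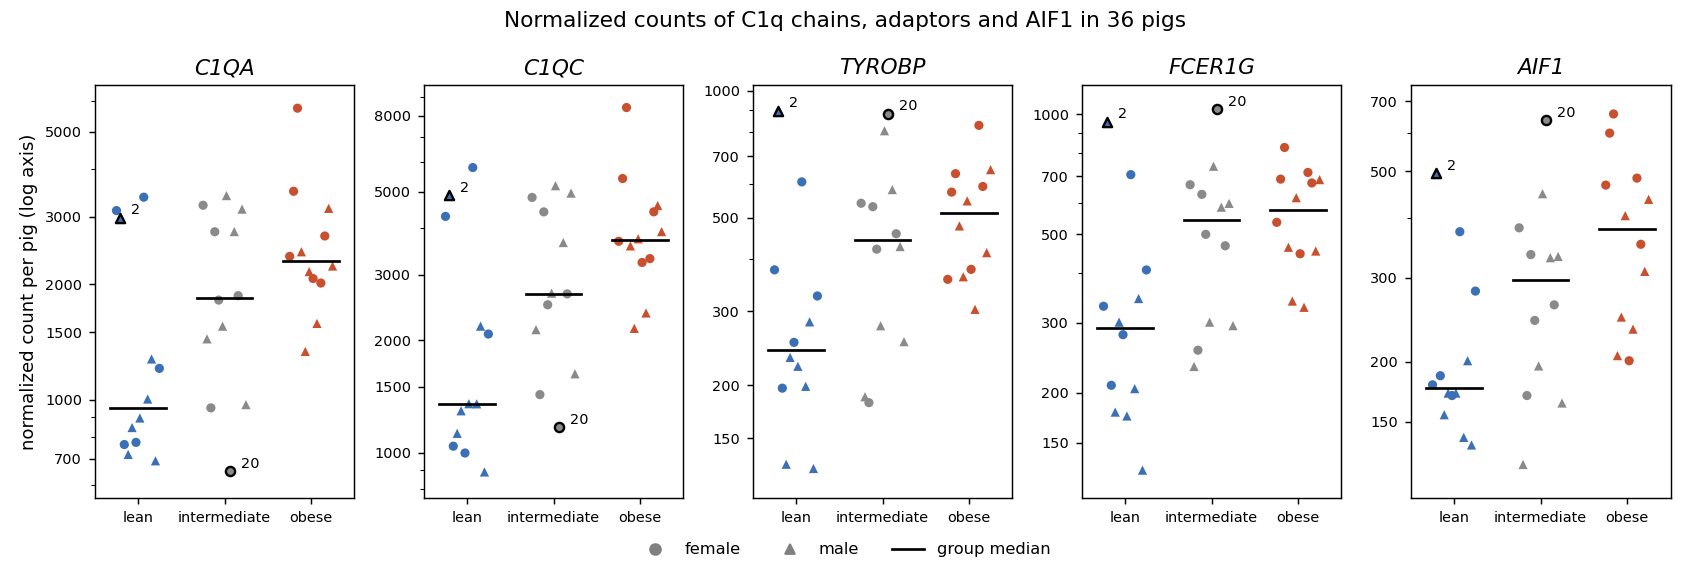
Normalized counts of the 5 genes on log axes. Each point is 1 pig (circles females, triangles males), the bars are the medians of the groups of 12, and pigs 2 and 20 are outlined; the lean pigs form a low cloud with a few high pigs above it, pig 2 stands at the top of the lean pigs for TYROBP (898), FCER1G (959) and AIF1 (495), and pig 20 is the lowest pig for C1QA (650) and the highest for FCER1G (1031).

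In no group were the pigs alike. The coefficient of variation was 70.5% for C1QA, 75.6% for C1QC, 69.5% for TYROBP, 69.5% for FCER1G and 49.3% for AIF1 in the lean pigs. In the obese pigs it was 44.5%, 40.2%, 30.4%, 28.2% and 39.7%, respectively. Over all pigs the highest value was 5.4 times (AIF1) to 9.5 times (C1QC) the lowest. The SD of C1QC on the log2 scale, 0.88, was above that of 95.4% of all genes. Group accounted for 20.5% (TYROBP) to 24.7% (C1QC) of the variance on the log2 scale, sex for a further 1.5% (C1QC) to 8.3% (AIF1), and 68.5% to 75.7% remained among pigs of the same group and sex.

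The lean pigs with high values were few. C1QA was 3113 normalized counts in pig 1, 2981 in pig 2 and 3374 in pig 8, against 692 to 1276 in the other 9 lean pigs. Pigs 2 and 8 were also the highest lean pigs for TYROBP (898 and 608), FCER1G (959 and 706) and AIF1 (495 and 374), whereas pig 1 had 376, 330 and 179. The summed macrophage markers were high in the same lean pigs, with 8861 in pig 2, 8049 in pig 8 and 4715 in pig 1, but also reached 5557 in pig 12, which had 1206 of C1QA. Lean pigs had sums of 1928 to 8861 (median 2821), intermediate pigs of 3084 to 8234 (median 5736) and obese pigs of 3521 to 8726 (median 6380). In bulk tissue a larger number of macrophages and more RNA per macrophage cannot be told apart, and the part of the marker genes in the differences was not tested. All 7 of these markers are themselves listed in the Blue module.

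No p-value is given for the members between groups, but the background of the contrast is. By limma with Benjamini-Hochberg (BH) adjustment over all genes at 0.05, 0.0408% of the 12253 genes passed for obese minus lean (each of these with a lower level in obese pigs), and at an unadjusted p below 0.05 the genes higher in obese pigs made up 6.81%. The median of all genes was -0.01 on the log2 scale. The differences of the members were 0.85 to 1.09 (C1QA), 0.94 to 1.19 (C1QC), 0.71 to 0.98 (TYROBP), 0.73 to 1.00 (FCER1G) and 0.69 to 0.89 (AIF1) when each of the 36 pigs was left out in turn. The number of genes that passed moved with single lean pigs. Without pig 2 it was 292 (2.38%, of which 191 were higher in obese pigs), without pig 8 it was 204 (1.66%), without pig 10 it was 43 and without pig 1 it was 12. The members were not past this threshold with all pigs, while without pig 2 all 5 were and without pig 8 C1QC was, counts from which nothing is read since the members were chosen on this contrast.

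The C1q chains had nearly the same pattern over the pigs. After group and sex were taken out, Pearson's r of C1QA with C1QC was 0.986 over the 36 pigs (Spearman's rho 0.984). On the deposited values, with sex left in, r within the groups was 0.989 (lean), 0.988 (intermediate) and 0.988 (obese). The normalized counts of C1QC were 1.28 to 1.8 times those of C1QA in all pigs, with a median of 1.54. This ratio is not per transcript length, so only its steadiness over the pigs is of use. The SD of the log2 ratio was 0.132, against 0.619 for C1QA over TYROBP.

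The adaptors formed a second close pair, with an r of 0.956 after group and sex (rho 0.928). Their ratio, TYROBP over FCER1G, was between 0.667 and 1.27 in all pigs. AIF1 was nearer to FCER1G (r = 0.896, rho 0.892) and TYROBP (r = 0.854, rho 0.811) than to the C1q chains (r = 0.542 with C1QA and 0.602 with C1QC). The C1q chains and the adaptors had r between 0.633 (C1QA with TYROBP) and 0.710 (C1QC with FCER1G). Without the 2 pigs farthest from the median of the first gene, r was 0.985 for C1QA with C1QC, 0.953 for TYROBP with FCER1G, 0.827 for C1QA with TYROBP, 0.830 for C1QA with FCER1G and 0.681 for C1QC with FCER1G. The pigs left out were 20 and 27 for C1QA, 11 and 27 for C1QC and 4 and 11 for TYROBP. Pig 20, described below, was thus left out for C1QA but not for C1QC. All values share the libraries and their depth, and they belong to genes that were picked from 1 co-expression module.

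Pig 20, an intermediate female, separated the C1q chains from the other members. She had 650 normalized counts of C1QA, the lowest of all pigs, and 1169 of C1QC, the 32nd of 36. The same library had 1031 of FCER1G, the highest of all pigs, 882 of TYROBP and 639 of AIF1, both the 2nd of 36. Her ratio of C1QA to FCER1G was 0.63, whereas it was between 2.76 and 9.44 in the other pigs. The summed macrophage markers of pig 20 were high (7813), and her T or NK cell markers (1024) were near the median of the intermediate pigs (1047). Her adipocyte markers (34317) were the lowest of the intermediate pigs, whose median was 49849. Her neutrophil markers (376) were the highest of these pigs (median 273), and her mast cell markers (799) were below their median (1157). The part of these cells in her values was not tested. Without pig 20, r rose to 0.811 for C1QA with TYROBP, 0.827 for C1QA with FCER1G and 0.752 for C1QA with AIF1, and for C1QC with these genes to 0.831, 0.862 and 0.779, respectively, while r of TYROBP with FCER1G was 0.953. The chains thus remained nearer to each other than to the adaptors without this pig.

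**Figure D2:**
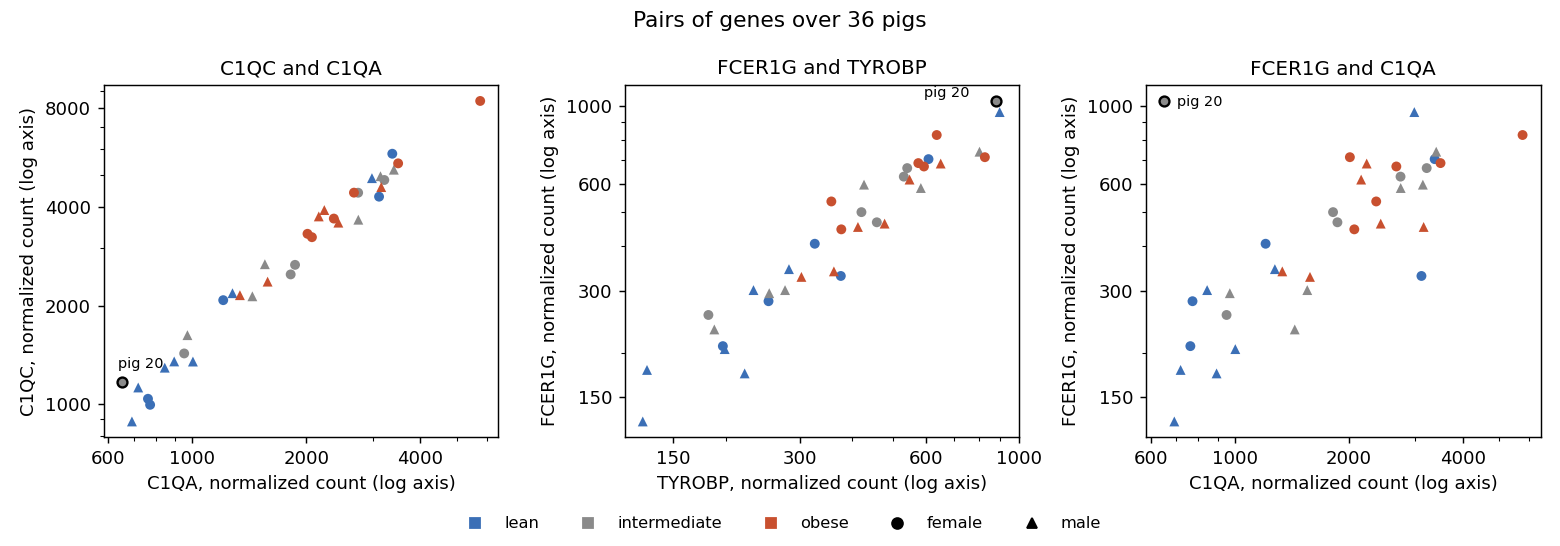
Normalized counts of 3 pairs of genes on log axes, with 1 point per pig coloured by group (circles females, triangles males) and pig 20 outlined. C1QC and C1QA lie on a narrow line (r = 0.986 after group and sex), as do FCER1G and TYROBP (r = 0.956), whereas FCER1G and C1QA scatter more widely (r = 0.644) and pig 20 lies apart with low C1QA and high FCER1G.

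The distance between the chains and the adaptors was not the same in every set of pigs. On the deposited values, C1QA with FCER1G had an r of 0.835 (lean), 0.357 (intermediate) and 0.735 (obese) within the groups, and of 0.514 in females and 0.904 in males. Pig 20 belongs to the intermediate females. These differences in r were not tested.

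Among all 12253 genes, those with the pattern most like C1QA were C1QC, the genes ENSSSCG00000003526 (r = 0.945) and ENSSSCG00000015663 (r = 0.863), which have no symbol in the tables used, CFP (r = 0.838), which encodes properdin, the stabilizer of the alternative complement convertase, and MS4A4A (r = 0.826), a membrane protein of macrophages. For C1QC they were C1QA, the same 2 unnamed genes (r = 0.951 and 0.878), CFP (r = 0.879) and CD209 (r = 0.861), a lectin of macrophages and dendritic cells. CFP itself had group medians of 102 (lean), 214 (intermediate) and 300 (obese) normalized counts. FCER1G ranked only 120th for C1QA and TYROBP 140th, and without pig 20 they ranked 18th and 26th. The other nearest genes also moved without this pig. ENSSSCG00000003526 (r = 0.947 with C1QA) and CFP (r = 0.910) stayed among the 5 nearest of both chains, but MS4A4A, CD209 and ENSSSCG00000015663 did not, and ARPC1B (r = 0.858) and another gene without a symbol for C1QA, and IRF5 (r = 0.879) and EMR1 (r = 0.876) for C1QC, took their places. C1QB has no row under its symbol in the names used here.

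The genes most like the adaptors were others. For FCER1G these were ITGB2 (r = 0.975), the beta chain of leukocyte integrins, SPI1 (r = 0.969), which encodes the myeloid transcription factor PU.1, TYROBP, FERMT3 (r = 0.949), an activator of integrins in blood cells, and LAPTM5 (r = 0.947), a lysosomal membrane protein of leukocytes. For TYROBP they were FCER1G, EVI2B (r = 0.948), APOBR (r = 0.946), ITGB2 (r = 0.945) and SPI1 (r = 0.931). ITGB2 had group medians of 353 (lean), 845 (intermediate) and 1138 (obese) normalized counts, and SPI1 of 201, 409 and 403.

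AIF1 was most like CLECL1 (r = 0.933), IL2RG (r = 0.930), the common gamma chain of interleukin receptors, MYO1F (r = 0.928), a myosin of leukocytes, MAP4K1 (r = 0.921), a kinase of blood cells, and FERMT3 (r = 0.919). IL2RG and MAP4K1 are also expressed by lymphocytes. The obese females 25, 26 and 27 had 468, 601 and 659 normalized counts of AIF1, and their summed T or NK cell markers (CD2, CD247, CD8A, NKG7 and GNLY) were 2902, 3098 and 2137, whereas these sums were 586 to 1382 in the other 33 pigs. Pigs 20, 2 and 33 also had high AIF1 (639, 495 and 484), with sums of 1024, 911 and 993. The median r of these markers with AIF1 was 0.265, from -0.061 (CD247) to 0.907 (NKG7, a Blue gene). The part of these cells in the level of AIF1 was not tested. Of the 15 genes named as nearest that are not members, 13 are listed in the Blue module. The others have no symbol, and the module list of the paper leaves out genes without a name, so their module is not known here.

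**Figure D3:**
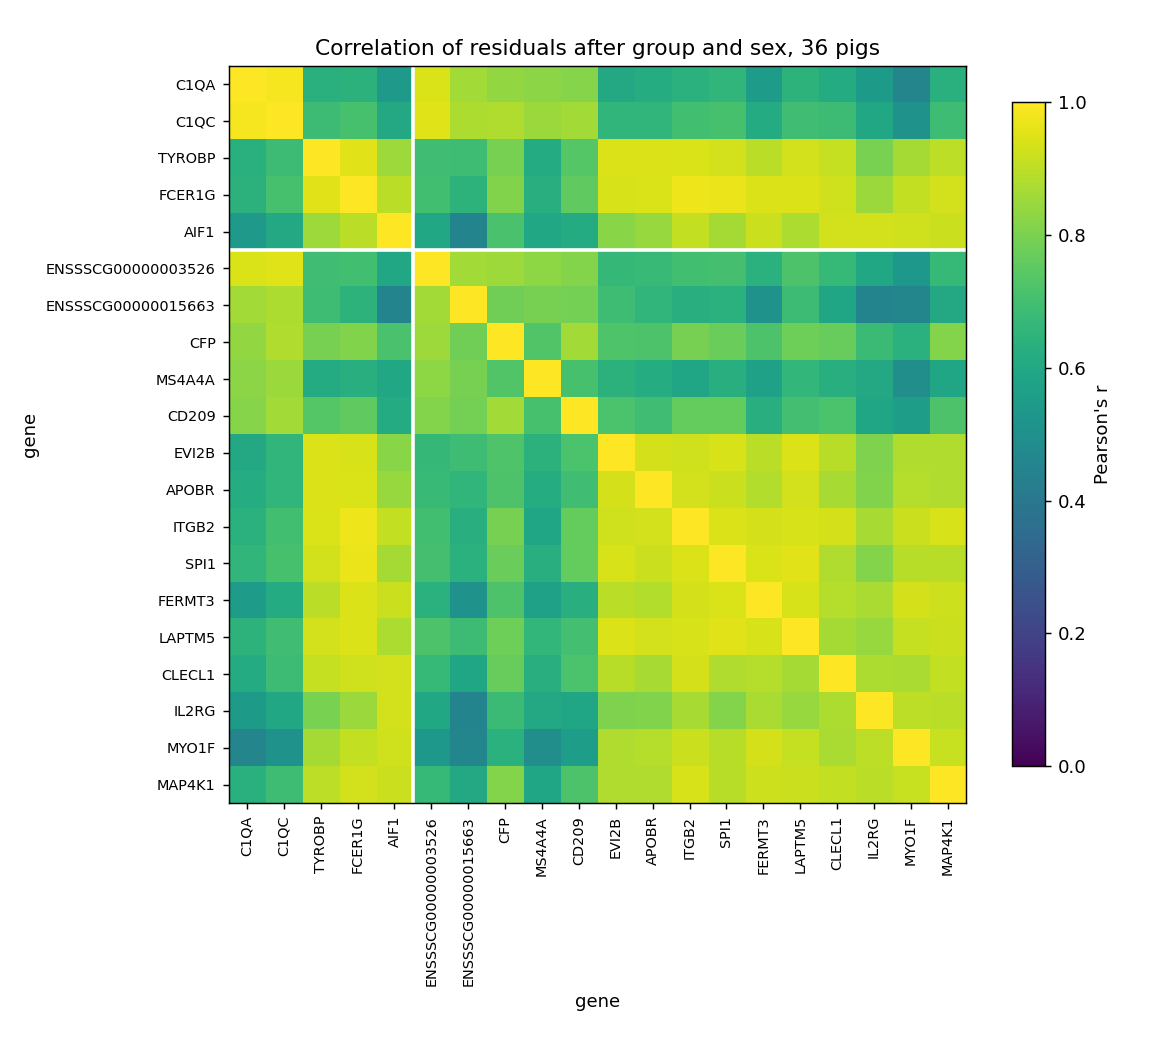
Pearson's r between the 5 genes (above and left of the white lines) and the genes most like each of them, computed over 36 pigs on residuals after group and sex. A bright block joins TYROBP, FCER1G and AIF1 with ITGB2, SPI1 and the other leukocyte genes (r up to 0.975), and a smaller block joins C1QA and C1QC with CFP, CD209, MS4A4A and the 2 unnamed genes.

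Complement was measured by 12 of 18 listed genes, which include the classical pathway, the alternative pathway (CFP, CFB and CFD), the lectin pathway (MASP1) and inhibitors. None passed the BH-adjusted threshold for obese minus lean by limma, also with voom weights, and 2 of 12 were higher at an unadjusted p below 0.05, against 6.81% of all genes. These were CFP, with 0.93 on the log2 scale (SE 0.31), and CLU, the complement inhibitor clusterin, with 1.14 (SE 0.425). CD55, which protects cells from complement, was 0.56 higher (SE 0.316) and CFI, which cleaves C3b, differed by -0.50 (SE 0.337), both with an unadjusted p above 0.05. In females CD55 was at 0.07 and CFI at 0.015, and in males at 0.97 and -0.91, with no difference between the sexes passing (BH-adjusted p = 0.548 and 0.561 by limma). C4A, which C1s cleaves, differed by 0.39 (SE 0.357) and C2 by 0.21 (SE 0.263), both with an unadjusted p above 0.05. The median of the list was 0.28, against -0.01 for all genes. In females alone this median was 0.04 and in males alone 0.32, and with single pigs left out it was 0.17 (without pig 27) to 0.39. CFP and C5 are the Blue genes of the list. Without pig 2, CFP passed, against 2.38% of all genes, but nothing is read from this, since pig 2 was a lean pig with high values of the members.

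Of 15 receptors of C1q and of complement fragments 7 were measured, and none passed by limma, also with voom weights, while 4 of 7 were higher in obese pigs at an unadjusted p below 0.05, against 6.81% of all genes. They were ITGB2 (1.25, SE 0.322), ITGAM (0.69, SE 0.266), which with ITGB2 forms complement receptor 3, C3AR1 (0.95, SE 0.301) and C5AR1 (0.73, SE 0.295), the receptors of the anaphylatoxins C3a and C5a. These 4 are the Blue genes of the list. The other 3 were CD93, an endothelial and myeloid receptor (-0.26, SE 0.137), CALR, a chaperone that can bind C1q (0.15, SE 0.128), and SCARF1, a scavenger receptor of endothelial cells (-0.12, SE 0.12). ITGB2, C3AR1, ITGAM and C5AR1 followed FCER1G (r = 0.975, 0.868, 0.794 and 0.859) more closely than C1QA (r = 0.637, 0.666, 0.580 and 0.539), and without pig 20 r was 0.975, 0.891, 0.809 and 0.851 with FCER1G and 0.796, 0.730, 0.648 and 0.699 with C1QA. Without pig 2 these 4 receptors passed, against 2.38% of all genes, and without pig 8 ITGB2 and C3AR1 did, against 1.66%. Nothing is read from these passes, since pigs 2 and 8 were the lean pigs with the highest FCER1G, which these receptors follow.

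Proteins with a globular C1q domain outside complement were measured by 8 of 20 genes. None passed by limma, also with voom weights, and 3 of 8 were higher in obese pigs at an unadjusted p below 0.05, against 6.81% of all genes. These were COL8A1, a short-chain collagen (0.94, SE 0.358), EMILIN2, a glycoprotein of elastic fibres (0.57, SE 0.236), and C1QTNF3, an adipokine (0.96, SE 0.422). Their values were larger in males than in females, with 1.74 and 0.04 for C1QTNF3, 1.39 and 0.39 for COL8A1 and 0.86 and 0.22 for EMILIN2, but no difference between the sexes passed by limma (BH-adjusted p = 0.377, 0.558 and 0.568). In females alone 1 of 8 genes had an unadjusted p below 0.05. Nothing is read from this count, because such values were common. In the fit of all pigs by limma, an unadjusted p of 0.0451 for females ranked only 1803rd among all genes. EMILIN1 differed by -0.26 (SE 0.138) with an unadjusted p above 0.05. The median r of the list with C1QA was 0.068 and with FCER1G 0.093, and the highest r with C1QA was 0.753, of EMILIN2. None of the 8 genes is listed in the Blue module.

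Few partners of the adaptors had a row. Of 22 receptors that pair with TYROBP or FCER1G only SIRPB1, FCGR1A and CSF2RB were measured under their symbols, and none passed by limma, with 0 of 3 at an unadjusted p below 0.05 (14.7% of all genes) and 2 of 3 with voom weights (16.0% of all genes). SIRPB1, a receptor that signals by TYROBP, differed by 0.39 (SE 0.194), FCGR1A, the high-affinity receptor of IgG, by 0.43 (SE 0.234) and CSF2RB, the shared chain of the receptors of GM-CSF and interleukin 3, by 0.19 (SE 0.223). The pattern of SIRPB1 had an r of 0.760 with TYROBP. TREM2 and the other 18 receptors of the list were not analysed here. Of the other adaptors with ITAMs, CD247, the zeta chain of T cell receptors, was measured. It differed by -0.04 (SE 0.158) and had an r of -0.318 with TYROBP and -0.191 with FCER1G (without pig 20 -0.232 and -0.075). Its obese minus lean difference was 0.30 in females and -0.34 in males, values whose contrast by sex was not called (BH-adjusted p = 0.369 by limma).

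The signalling genes below the ITAM were well covered, with 21 of 24 measured. None of them passed the BH-adjusted threshold by limma, also with voom weights. At an unadjusted p below 0.05, 14 of 21 were higher and 0 of 21 lower in obese pigs, against 6.81% higher among all genes. PIK3AP1, an adaptor of phosphoinositide 3-kinase, was 0.79 higher on the log2 scale (SE 0.242), RAC2, a GTPase of the phagocyte oxidase, 0.82 (SE 0.261) and PTPN6, the phosphatase SHP-1, 0.65 (SE 0.213). The median over the list was 0.55, against -0.01 over all genes.

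The signalling list is not independent of the choice of the members. The 11 genes of it listed in the Blue module were all among the 14 with an unadjusted p below 0.05. Of the 10 genes not listed there 3 were, with a median of 0.22. The patterns of the signalling list lay with the adaptors. Of the 21 genes 20 had a higher r with FCER1G than with C1QA, and the median r was 0.769 with FCER1G, 0.760 with AIF1, 0.721 with TYROBP and 0.511 with C1QA. Without pig 20 the gap was smaller, with 19 of 21 genes and a median r of 0.753 with FCER1G and 0.659 with C1QA. Without pig 2, 10 of 21 passed (among them BLNK, BTK, INPP5D, LAT2, LCP2, PIK3AP1, PTPN6, RAC2 and VAV1), against 2.38% of all genes, and without pig 8 1 of 21 did, against 1.66%. Nothing is read from these counts, since pigs 2 and 8 were the lean pigs with the highest FCER1G.

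Actin regulators that work with AIF1 or beside it in leukocytes were measured by 10 of 12 genes. None passed by limma, also with voom weights, and 4 of 10 were higher in obese pigs at an unadjusted p below 0.05, against 6.81% of all genes. LCP1, a leukocyte plastin that bundles actin, was 1.36 higher (SE 0.382), CORO1A, a coronin of leukocytes, 0.74 (SE 0.243), HCLS1, a cortactin of blood cells, 0.52 (SE 0.215) and TMSB4X, which binds actin monomers, 0.27 (SE 0.121). The general actin genes ACTB (0.22, SE 0.152), CFL1 (0.17, SE 0.105) and PFN1 (-0.05, SE 0.114) had an unadjusted p above 0.05. The 4 genes are listed in the Blue module, and no actin regulator without such a listing had an unadjusted p below 0.05. Without pig 2 LCP1 passed, against 2.38% of all genes, and so it did without pig 8, against 1.66%. Nothing is read from this either, since pigs 2 and 8 were the lean pigs with the highest AIF1.

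The genes beside the members on the chromosomes were examined as well. In the order of genes of the RefSeq annotation of Sscrofa11.1, C1QA, C1QC and C1QB follow each other, TYROBP lies beside HCST, FCER1G beside APOA2, and AIF1 beside LST1. Of 27 neighbours, looked up by symbol, 16 were measured. None of these passed by limma, also with voom weights, and 0 of 16 had an unadjusted p below 0.05, against 14.7% of all genes. Their median difference was -0.08, and 5 of 16 were above 0. Among the measured neighbours were EPHB2 beside the C1q genes (-0.10, SE 0.302), NFKBID beside TYROBP (0.05, SE 0.115), TOMM40L near FCER1G (0.12, SE 0.099) and PRRC2A near AIF1 (-0.08, SE 0.065). The median r of the neighbours was 0.064 with FCER1G, 0.092 with C1QA and 0.135 with AIF1, and single genes had higher ones, such as KDM1A with 0.578 with AIF1. Genes without a symbol were not counted as neighbours, and C1QB had no row under its symbol. The unnamed ENSSSCG00000003526, whose ID follows that of C1QC, had an obese minus lean of 1.04 (SE 0.328). Its unadjusted p was below 0.05 by limma, and its r was 0.951 with C1QC. Its place on the chromosome was not looked up, so it may be a neighbour that the count leaves out.

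**Figure D4:**
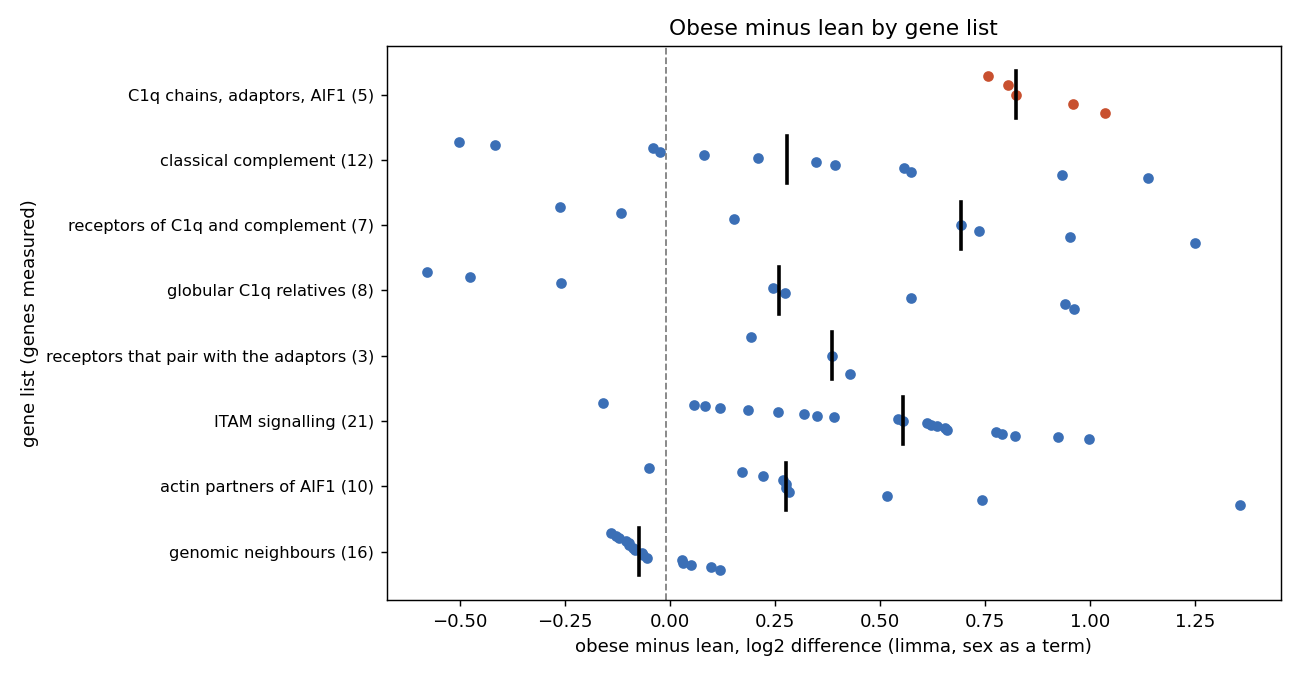
Obese minus lean on the log2 scale, by limma with sex as a term, with 1 point per gene, the number of genes measured in parentheses and a black bar at the median of each list. The dashed line is the median of all 12253 genes (-0.01). The 5 genes lie between 0.76 and 1.04, and the ITAM signalling genes have a median of 0.55. The genomic neighbours measured under their symbols lie around the dashed line.

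Sex did not enter the choice of the genes, so it was tested. Females had medians of 2069 normalized counts of C1QA, 3313 of C1QC, 458 of TYROBP, 536 of FCER1G and 335 of AIF1 (n = 17). In males the medians were 1554, 2368, 303, 340 and 206 (n = 19). None of the 5 genes passed for male minus female by limma, also with voom weights, against 2.19% of all genes, and FCER1G and AIF1 had an unadjusted p below 0.05, against 18.3% of all genes. Markers of other cell types had values of male minus female in both directions, and only some of them passed. Of the T or NK cell markers none passed, and 4 of 5 had an unadjusted p below 0.05 (CD2 with -1.07, CD8A with -1.09, NKG7 with -0.74 and GNLY with -0.85 on the log2 scale). The adipocyte genes LIPE (-0.55, BH-adjusted p = 0.00534 by limma) and PNPLA2 (-0.37, adjusted p = 0.0483) passed, whereas CIDEC did not (-0.04). Of the fibroblast or progenitor markers 5 of 6 had an unadjusted p below 0.05, 4 of them with higher values in males, and DCN passed (0.62, adjusted p = 0.0222 by limma). Their sum had a median of 235932 in females and 366694 in males. The summed macrophage markers had a median of 5557 in females and 3521 in males, with ranges of 2569 to 8049 and 1928 to 8861. Those of neutrophils had a median of 239 in females and 130 in males. The part of these cells in the values of the members was not tested.

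With group as a term, FCER1G in males was 0.740 times the level in females (95% interval 0.549 to 0.999, BH-adjusted p = 0.271 by limma) and AIF1 0.756 times (95% interval 0.572 to 0.999, adjusted p = 0.271). TYROBP was 0.785 times (95% interval 0.572 to 1.077, adjusted p = 0.415). The C1q chains were closer to even, with 0.852 for C1QA (95% interval 0.601 to 1.208, adjusted p = 0.667) and 0.862 for C1QC (95% interval 0.605 to 1.227, adjusted p = 0.700). The adjusted p of FCER1G was 0.25 to 0.367 over the other settings and 0.0892 to 0.360 by limma with single pigs left out, with no call, and that of AIF1 was 0.239 to 0.350 and 0.123 to 0.379.

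Obese minus lean was above 0 in both sexes for each of the 5 genes. In females it was 0.87 (C1QA), 0.95 (C1QC), 0.66 (TYROBP), 0.78 (FCER1G) and 0.87 (AIF1) on the log2 scale. In males it was 1.00, 1.07, 0.92, 0.85 and 0.66, respectively. The difference between the sexes in this effect was 0.13 (SE 0.607) for C1QA, 0.12 (SE 0.616) for C1QC, 0.27 (SE 0.567) for TYROBP, 0.07 (SE 0.538) for FCER1G and -0.20 (SE 0.499) for AIF1. The median of all genes for this difference was 0.09, and with the median of each pig subtracted C1QA was at 0.045, C1QC at 0.036, TYROBP at 0.18 and AIF1 at -0.28, while FCER1G turned to -0.012. None passed by limma, also with voom weights, and none had an unadjusted p below 0.05, with BH-adjusted p from 0.875 to 0.969. Of all genes 0.00816% passed and 12.9% had an unadjusted p below 0.05. The 95% intervals of these differences, without adjustment, reached from -0.887 to 1.417 for TYROBP and from -1.134 to 1.37 for C1QC.

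**Figure D5:**
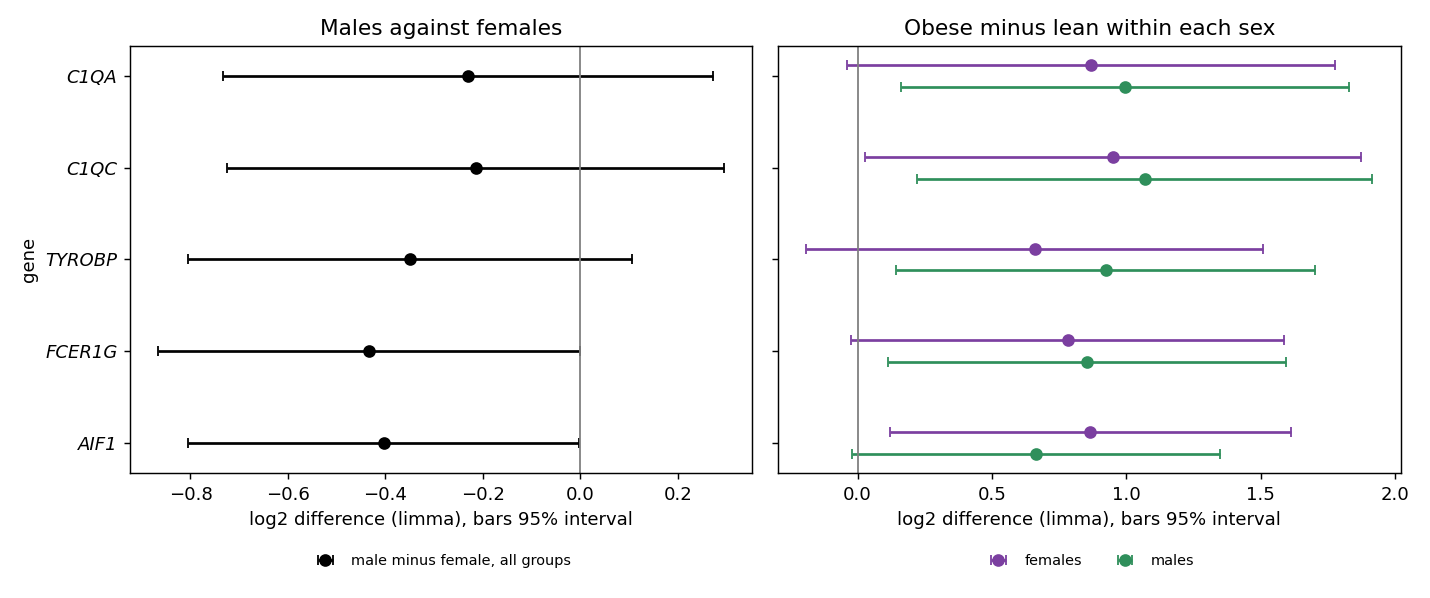
Differences of the 5 genes on the log2 scale by limma, with bars for the 95% interval. Left, male minus female over all groups, where all 5 values are below 0 and the intervals of FCER1G and AIF1 end just below 0; right, obese minus lean within females and within males, where all 10 values are above 0.

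The step from lean to intermediate pigs differed more between the sexes for the C1q chains than for the other members, but not beyond the error. In intermediate pigs the median of C1QA was 1843 in females and 2149 in males, and in lean pigs it was 1206 in females and 895 in males. In females alone intermediate minus lean was 0.08 for C1QA and 0.13 for C1QC on the log2 scale, and in males alone it was 0.93 and 0.97. The difference of the effects was 0.84 (SE 0.607) for C1QA and 0.84 (SE 0.616) for C1QC, with a BH-adjusted p of 0.972 for both by limma, and 0.0% of all genes passed. This comparison was added after the data had been seen. Intermediate females include pig 20, which was the lowest of all pigs for C1QA.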

How the data were processed

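RNA was isolated from subcutaneous adipose tissue, and libraries were made with a TruSeq kit that does not mark strand, so that reads of a gene and of an antisense partner cannot be told apart. The authors aligned to Sscrofa10.2 by STAR and obtained read counts by HTSeq. Weakly expressed genes were dropped, and DESeq size factors and limma's voom transform followed, with tool versions not given in the sources used here. Values were deposited as log2, and the steps between low values show that each is a constant plus the log2 of (read count + 0.5) / (size factor + 1). Whole reads were recovered (99.853% to 99.943% of the values of a pig lay within 0.1 of a whole number), between 8735838 and 11755925 per pig. The lowest counts per pig were 6 or 7 reads, so that genes near 0 are not in the table. A correction for gender is named in the methods, but is not in the deposited values.

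The deposited log2 values of all 36 pigs were fitted with limma 3.58.1 in R 4.3.3 (empirical Bayes with an intensity trend, group and sex as terms, BH adjustment over 12253 genes at 0.05). Likeness was Pearson's r of residuals after group and sex. Python 3.11.15, numpy 2.4.6, pandas 2.3.3 and scipy 1.17.1 were used for the rest. The fit was tested on simulated log2 values of 12253 genes, drawn from normal distributions with the mean and residual SD of each gene. Of these genes 200 were given an obese minus lean log2 change of 1, up or down. The fit recovered 182 (91%) with 12 false calls. Genes and pigs were drawn independently, so co-expression and single pigs that move many genes were not simulated. A gene name table gave 8320 symbols and the study's module gene list 105 more, among them C1QC and AIF1, and 3828 genes had none.

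The members and lists were chosen with earlier results of these data known. From each list, genes that passed and the 4 with the smallest unadjusted p were named, and for each member the 5 most alike genes. Some genes that this rule gives are not reported here. Other genes in the text (the rest of the receptors, C4A, C2, the general actin genes, EMILIN2 again by its r, the genes called without a pig, the neighbours, and pigs 1, 2, 8, 20 and 25 to 27) were picked after their values were seen. Marker lists for B cells, dendritic cells and skeletal muscle had no gene under its symbol. Which pigs shared a lane or were sibs is not known here, and p-values treat the pigs as independent. Alternatives were a fit without sex, lean and obese pigs alone, no intensity trend, the 25% of genes with the lowest means left out, the median of each pig subtracted, recovered reads over the whole size factor with pseudocounts of 0.5 and 5, voom weights, each sex alone and each pig left out. The settings for r, the interaction of sex with intermediate minus lean, and the use of EMR1 as the older symbol of ADGRE1 were chosen after seeing the data.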

Additional observations from a re-analysis of the deposited data

How the results depend on the processing

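The obese minus lean differences of the 5 genes stayed above 0 in all alternatives, between 0.66 (TYROBP in females) and 1.07 (C1QC in males) in the planned settings and between 0.69 and 1.19 with single pigs left out. The number of genes that passed for obese minus lean was 5 (TAS1R3 and 4 genes without a symbol, all lower in obese pigs and named after their values were seen), and it moved to 3 without sex, 17 with lean and obese pigs alone, 12 without the trend, 1 without the 25% of genes with the lowest means, 9 with the median subtracted, 9 and 9 with the whole size factor and pseudocounts of 0.5 and 5, 17 with voom weights, 21 in females alone and 2 in males alone. With each pig left out it was 1 (for example without pig 3) to 292 (without pig 2), with 204 without pig 8 and 43 without pig 10. For male minus female 268 genes passed, and 147 (without pig 25) to 546 (without pig 1) with each pig left out. For the interaction of sex with obese minus lean 1 gene passed, 2 without the trend, 0 with the median subtracted, with either whole size factor setting and with voom weights, and 0 to 33 (without pig 2) with each pig left out. The interaction of FCER1G turned to -0.012 with the median subtracted, -0.012 and -0.017 with the whole size factor and -0.043 with voom weights, all far within its SE of 0.538. With each pig left out it was -0.165 to 0.40 for FCER1G, -0.155 to 0.394 for C1QA, -0.216 to 0.406 for C1QC and -0.451 to 0.048 for AIF1. In the lists, with each pig left out, 0 to 1 complement genes, 0 to 4 receptors, 0 to 10 ITAM signalling genes and 0 to 1 actin partners passed. The cause of these moves was not tested. No paired analysis was made, because each pig belonged to a single group and the labels pair no pigs between groups. With 12 pigs a group and residual SDs of 0.62 to 0.79, the spread between pigs rather than the depth limited the precision.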

Other observations

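C5, the complement component from which C5a is released, is listed in the Blue module and had negative r with the members. The network was unsigned, so that genes of opposite pattern can share a module. Its r after group and sex was -0.447 with C1QA, -0.484 with C1QC, -0.579 with TYROBP, -0.577 with FCER1G and -0.535 with AIF1 over the 36 pigs, and its obese minus lean difference was -0.42 on the log2 scale (SE 0.313, unadjusted p = 0.190 by limma over all pigs). FYN was the signalling gene that was nearer to C1QA (r = 0.699) than to FCER1G (r = 0.278; without pig 20 0.639 and 0.445), and it is a Src family kinase that is expressed in many cell types. Both genes were picked after their values were seen.

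Mast cell markers (KIT and MS4A2) are of interest beside FCER1G, since mast cells carry it in their IgE receptor. Their sum was 508 to 2768 normalized counts (median 864) in lean, 661 to 1692 (median 1157) in intermediate and 866 to 1824 (median 1287) in obese pigs, and the median r of these genes was 0.380 with FCER1G and 0.481 with C1QA. The neutrophil markers S100A8 and CSF3R summed to 33 to 400 (median 94) in lean, 82 to 376 (median 273) in intermediate and 86 to 469 (median 231) in obese pigs, with a median r of 0.715 with FCER1G. CSF3R was 1.67 higher in obese than in lean pigs on the log2 scale (SE 0.499, unadjusted p = 0.00198 and BH-adjusted p = 0.106 by limma), and its r with FCER1G was 0.865, but it is listed in the Blue module, so that neither value is independent of how the members were chosen. S100A8 differed by 0.47 (SE 0.343). Their part in the level of FCER1G was not tested.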
